A study of Mus musculus with 25 samples.

Results

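Promoter peaks are the regions of open chromatin that lie at the start sites of genes. Here they were the ATAC-seq peaks whose centre lay within 1000 bp of the nearest gene's transcription start site (TSS), on the autosomes other than 1, 6 and 14, which were left out for their shifted medians. This rule took 10684 of the 65053 consensus peaks, against 39968 other peaks on the same 16 chromosomes, of which 6892 lay 1 to 10 kb and 33076 over 10 kb from a TSS. The rule used the distance to a TSS and the chromosome and no peak's own signal, but the 3 chromosomes were left out on measured values. The cells were 2 mouse islet tumour lines, alpha TC1 clone 6 (αTC1), a clonal glucagon-producing line, and beta-TC-6 (βTC6), an insulin-producing line. Both lines were derived from mice that carry the SV40 large T antigen, under the glucagon gene's promoter in αTC1 and under the insulin promoter in βTC6, so each is an immortalized tumour line and not a primary islet cell. No cell was treated. The lines were grown in different versions of the same base medium, with different serum shares and supplements. Glucose was listed among the additions for αTC1 alone. Line and medium cannot be told apart. ATAC-seq was done on 5 replicates of each line and on 9 mixtures made in 10% steps from 10% to 90% αTC1, and RNA-seq on 3 replicates of each line. No source used here says that replicates came from separate cultures, so p-values measure the spread between these samples, which may be technical.

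A promoter is the DNA around a TSS where RNA polymerase and the general transcription factors assemble. Most mammalian promoters lie in CpG islands, stretches rich in the dinucleotide CG that usually stay free of DNA methylation and nucleosome-poor in many cell types, whereas CpG-poor promoters tend to belong to genes used by few cell types, the hormone genes among them. ATAC-seq inserts adapters where a transposase can reach the DNA, so a promoter with many reads is an accessible one.

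The positions were set beside another annotation. Of the 10684 promoter peaks, 10436 (97.7%) also had a TSS of the mm9 annotation (GENCODE vM1) within 1 kb. Start sites on both strands lay within 1 kb of 16.8% of them, against 0.165% of the other peaks. The rule used the distance to a TSS, so these shares follow largely from it and are no independent check. The central 200 bp of a promoter peak had a median GC content of 66.0% and a median ratio of observed to expected CpG of 0.827, whereas the other peaks had 46.5% and 0.231. The promoter peaks belonged to 9879 genes, of which 734 had 2 or more. The pure libraries held 4397851 to 10374903 reads in peaks, 1398689 to 3186220 of them in promoter peaks, the mixtures 5277983 to 7294832, and the RNA-seq libraries 21954031 to 26033482 expected counts. Values are read counts in a peak that the authors normalized by TMM (trimmed mean of M-values), called normalized reads here, and 1 read is the lowest value of the table, so signal of 1 read and no signal look alike. In the αTC1 libraries 1 read stood at 0.136 to 0.150 normalized reads, as at the peak of Wipi1.

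The sequences of 6 promoters are shown first, chosen after their values were seen to give examples of CpG-rich and CpG-poor promoters. Each is the 200 bases just upstream of the TSS on mm9, written 5′ to 3′ on the gene's strand with each CG in capitals, and none overlaps an annotated exon. Galnt13 and Jag1 were among the promoters with the largest statistics in βTC6, Gm2381 and Psg16 among those with the largest in αTC1, and Gcg and Ins1 are the promoters of glucagon and insulin.
Galnt13, chr2:54288528-54288727, plus strand: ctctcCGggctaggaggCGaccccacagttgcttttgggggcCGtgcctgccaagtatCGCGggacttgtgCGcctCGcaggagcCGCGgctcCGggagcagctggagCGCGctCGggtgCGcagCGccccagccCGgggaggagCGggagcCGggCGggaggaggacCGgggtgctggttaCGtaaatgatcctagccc
Jag1, chr2:136942381-136942580, minus strand: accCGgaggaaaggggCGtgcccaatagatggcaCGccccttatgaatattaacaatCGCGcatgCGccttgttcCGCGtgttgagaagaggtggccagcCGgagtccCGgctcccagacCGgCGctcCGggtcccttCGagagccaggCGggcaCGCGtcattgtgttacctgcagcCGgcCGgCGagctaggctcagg
Gm2381, chr7:50122605-50122804, minus strand: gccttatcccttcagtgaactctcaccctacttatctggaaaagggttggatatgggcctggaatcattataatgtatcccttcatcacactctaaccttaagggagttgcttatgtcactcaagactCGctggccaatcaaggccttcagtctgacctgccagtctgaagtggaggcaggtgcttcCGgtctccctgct
Psg16, chr7:17659189-17659388, plus strand: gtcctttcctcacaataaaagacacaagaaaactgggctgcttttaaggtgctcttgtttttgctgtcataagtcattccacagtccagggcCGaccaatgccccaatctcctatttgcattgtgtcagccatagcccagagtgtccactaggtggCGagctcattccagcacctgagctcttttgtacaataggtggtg
Gcg, chr2:62321708-62321907, minus strand: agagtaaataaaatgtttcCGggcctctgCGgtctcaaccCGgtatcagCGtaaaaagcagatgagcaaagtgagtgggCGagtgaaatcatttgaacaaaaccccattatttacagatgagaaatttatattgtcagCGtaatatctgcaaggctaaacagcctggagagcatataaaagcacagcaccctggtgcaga
Ins1, chr19:52338613-52338812, plus strand: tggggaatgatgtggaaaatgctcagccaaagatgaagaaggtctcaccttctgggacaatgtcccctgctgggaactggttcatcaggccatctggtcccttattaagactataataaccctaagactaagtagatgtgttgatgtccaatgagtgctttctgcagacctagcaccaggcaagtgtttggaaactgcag
The Galnt13 and Jag1 windows held 21 and 20 CG dinucleotides. Those of Gm2381 and Psg16 held 2 each, that of Gcg 6 and that of Ins1 0. Other windows did not divide in this way, since that of Sema3c, more open in βTC6, held 7 and those of 3930402G23Rik and Bdnf, more open in αTC1, 8 and 6, while Pdx1 and Ins2, more open in βTC6, had 5 and 2.

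Promoter peaks differed less between the lines than other peaks did. With calls made by limma over all peaks, at a Benjamini-Hochberg FDR below 5% and a log2 fold change beyond 2 in size, 534 promoter peaks (5.00%) were more open in βTC6, where 12.9% of all consensus peaks were, and 102 (0.955%) were more open in αTC1, where 5.38% of all were. The remaining 10048 were not called. Of peaks 1 to 10 kb from a TSS, 9.10% were called in βTC6 and 6.49% in αTC1, and of peaks over 10 kb away 15.8% and 5.87%. The median absolute log2 fold change was 0.532 at promoter peaks, 0.844 at 1 to 10 kb and 1.15 beyond 10 kb. Per library, the distance of each library from the mean of the other line was taken as the median absolute log2 difference. It was 0.483 to 0.623 over promoter peaks and 1.03 to 1.23 over the other peaks, and smaller at promoter peaks in 10 of 10 libraries, by 0.549 on average. Libraries of a line share the mean they are measured against, so they are not independent and no p is given. The distance of each library from the mean of the 4 others of its own line, where no line difference enters, was 0.155 over promoter peaks and 0.234 over the other peaks on average, also smaller at promoter peaks in 10 of 10 libraries. With it subtracted, a comparison added after seeing the data, the distances between lines were 0.393 and 0.863 on average. With a pseudocount of 5 in place of 1 the difference was -0.184, and 175 and 15 promoter peaks were called.

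Promoter peaks also held more reads, with a median of 24.9 normalized reads against 6.07 at the other peaks, and the share called varied with the level. Of promoter peaks with a mean of up to 2 normalized reads 0 were called, against 10.3% of those with 2 to 5, 15.2% of those with 5 to 10 and 0.6% of those with 50 to 100. Level for level, from 2 normalized reads upwards, a smaller share of promoter peaks than of peaks over 10 kb away was called. Among peaks with 20 to 50 normalized reads, 2.91% of 4433 promoter peaks were called in βTC6 and 0.226% in αTC1, against 12.5% and 9.51% of the 3144 peaks beyond 10 kb. Peaks 1 to 10 kb from a TSS were close to the promoter peaks in the βTC6 share at matched level, with 8.57% against 8.46% at 2 to 5 normalized reads, 12.6% against 12.3% at 5 to 10, 9.39% against 8.02% at 10 to 20 and 3.52% against 2.91% at 20 to 50. Their αTC1 share was higher, with 8.13% against 2.94% at 5 to 10 and 5.46% against 0.226% at 20 to 50. Within 20 to 50 normalized reads the distance between lines was also smaller at promoter peaks than at all other peaks, by a mean difference of -0.379, and of -0.367 with the distance within the own line subtracted.

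**Figure D1:**
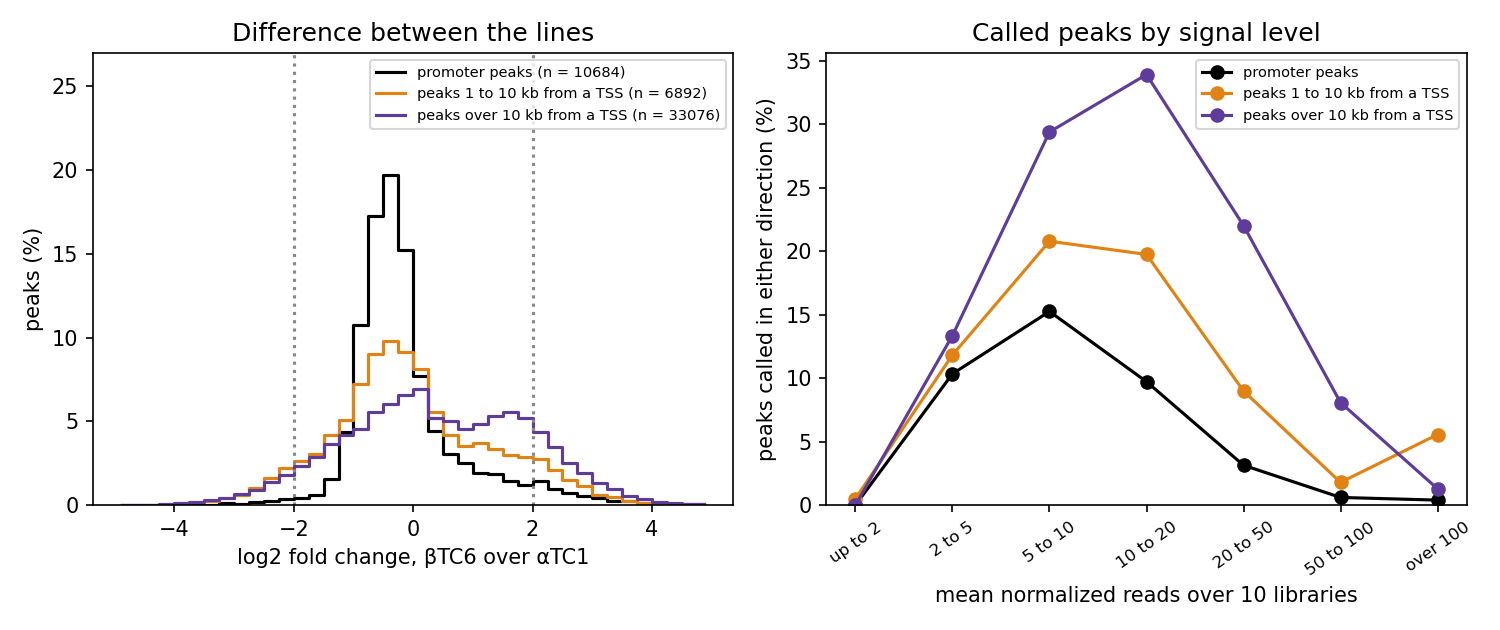
The left panel plots the share of peaks (%) in each class by log2 fold change of βTC6 over αTC1, with dotted lines at the thresholds of -2 and 2. The right panel plots the share of peaks called in either direction by mean normalized reads, and promoter peaks (black) lie below peaks over 10 kb from a TSS in each bin from 2 normalized reads upwards.

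Below the fold threshold the direction turned. At the FDR alone, 5778 promoter peaks were higher in αTC1, where 38.1% of all peaks were, and 2115 in βTC6, where 39.9% were. After quantile normalization these counts were 3911 and 2676. The median log2 fold change of promoter peaks was -0.32, with quartiles of -0.65 and 0.11, while that of the other peaks was 0.19. After quantile normalization the promoter median was -0.11 and that of the other peaks -0.04, and βTC6 made up 73.5% of the called promoter peaks in place of 84.0%. By chromosome, the promoter median ran from -0.65 on chromosome 7, where 23 peaks were called in βTC6 and 19 in αTC1, to 0.12 on chromosome 11, where 53 and 8 were. This range is limited by the rule, since the promoter peaks of the chromosomes left out for their medians, 1, 6 and 14, had a median of -0.79.

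In αTC1 replicates 1 to 5, promoter peaks took 47.1%, 47.8%, 47.4%, 42.5% and 41.3% of the reads in peaks of these chromosomes, and in βTC6 42.4%, 40.2%, 42.1%, 39.9% and 39.4%. The ranges of the lines overlap. The means were 45.2% ± 3.07 in αTC1 and 40.8% ± 1.36 in βTC6 (SD, n = 5), a difference of -4.41 percentage points (exact permutation test, 2-sided, p = 0.0317). Replicates 4 and 5 were treated as a separate processing group, since the study's quality table derives their mitochondrial share differently from that of replicates 1 to 3. Within replicates 1 to 3 the difference was -5.84 points, and within replicates 4 and 5 it was -2.26 points, without overlap in either, but the exact permutation tests cannot go below p = 0.1 and p = 0.333 there, the values found. Without αTC1 replicate 1, 2 or 3 or βTC6 replicate 2, 4 or 5 the difference was -3.94, -3.77, -3.87, -4.27, -4.18 and -4.06 points, each with an exact permutation p = 0.0635. In the 9 mixtures the share was 38.7% to 41.6%, at 39.1% with 10% αTC1 and 40.1% with 90% αTC1, below αTC1 replicates 1 to 3.

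Peaks at the ends of the window were called more often than those in its middle. Of the 4401 peaks centred within 100 bp of the TSS, 3.75% were called in βTC6 and 0.682% in αTC1. Of the 629 peaks centred 500 to 1000 bp downstream, 11% and 2.54% were called, and their median signal was 10.4 normalized reads against 25.9 within 100 bp. The 200 members nearest to the limit, at 883 to 1000 bp, had a median of 8.41 normalized reads and 24 called peaks, and the 200 peaks just beyond it, at 1001 to 1114 bp, had 9.39 and 11.

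Among called peaks with a mean of at least 20 normalized reads in the higher line, the 8 promoter peaks with the largest statistics in βTC6 were those of Wipi1, Amz2, Kcnn2, Sema3c, Galnt13, Mctp1, Jag1 and Prkar1a. Galnt13, an enzyme that starts mucin-type O-glycosylation, had 137, 139, 133, 128 and 119 normalized reads in the βTC6 libraries and 4.48, 6.46, 5.71, 3.14 and 3.76 in the αTC1 libraries (chr2:54288318-54290324, centred 523 bp from the TSS in an intron). On the log2 scale this was a change of 4.56 ± 0.14 (SE; limma adjusted p = 1.95e-15). The groups do not overlap, and the lowest βTC6 library lay far above the highest αTC1 library. Sema3c, a secreted axon guidance protein, had 90.3, 85.5, 83.1, 95.9 and 109 normalized reads in βTC6 and 6.16, 5.48, 5.71, 6.14 and 4.77 in αTC1 (chr5:17079437-17080997). Jag1, a ligand of Notch receptors, had 81.5, 78.6, 72.8, 86.0 and 66.4 in βTC6 and 1.82, 2.11, 3.31, 2.46 and 3.18 in αTC1 (chr2:136941918-136943415). In both, all 5 βTC6 libraries stood above all 5 αTC1 libraries, with log2 fold changes of 3.81 and 4.46. Kcnn2, a potassium channel opened by calcium, had 103 ± 11.9 normalized reads in βTC6 and 5.16 ± 0.746 in αTC1 (SD, n = 5), and Mctp1, a calcium-binding membrane protein, 91.8 ± 12 and 5.11 ± 0.749.

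RNA of several of these genes was low. Galnt13 had 6.80, 6.56 and 5.89 FPKM (fragments per kilobase, scaled to library size, so levels are per length) in the βTC6 RNA-seq libraries and was listed at 0 in all 3 αTC1 libraries. Jag1 had 1.14, 0.530 and 1.16 FPKM in βTC6, listed at 0 in αTC1, and Mctp1 had a mean of 0.323 FPKM in βTC6. Both fell below the RNA-seq filter of 1 FPKM in all replicates of either line and were not tested. Sema3c passed it with 1.93 ± 0.604 FPKM in βTC6 against 0.0633 ± 0.0252 in αTC1 (SD, n = 3).

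**Figure D2:**
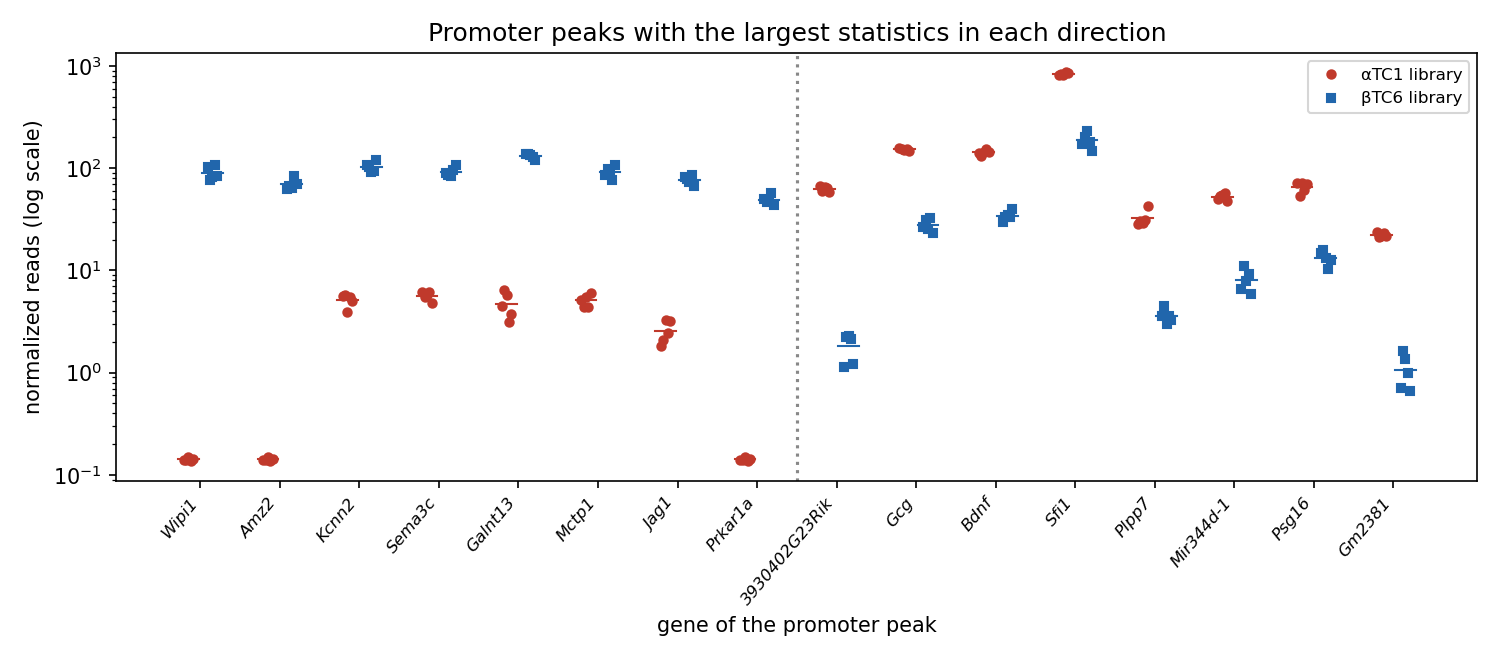
Normalized reads (log scale) in each αTC1 library (circles) and βTC6 library (squares) for the 8 promoter peaks with the largest statistics in each direction, with the mean of 5 libraries as a line. The lines do not overlap at any of these 16 peaks, and Wipi1, Amz2 and Prkar1a sit at 1 read in every αTC1 library.

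Wipi1, Amz2 and Prkar1a belong to a stretch of chromosome 11 from 108459224 to 111177459 in which every αTC1 value stood at 1 read. It held 59 consensus peaks, 14 of them promoter peaks, and all 14 were called in βTC6. Wipi1, an autophagy protein, had 102, 76.1, 82.6, 108 and 83.6 normalized reads in βTC6. Their mean was at least 212-fold above a floor of 3 reads a library in αTC1, a bound set above the 1 read found there. Prkar1a, a regulatory subunit of protein kinase A, had 49.7, 46.4, 48.6, 57.8 and 43.3, with a mean at least 115-fold above that floor. Its RNA stood at 521 ± 77.7 FPKM in βTC6 against 0.00667 ± 0.0115 in αTC1 (SD, n = 3). The other promoters there were those of Gna13, Axin2, Rgs9, Abca5, Abca8b, Fam20a, Map2k6, Kcnj2, Slc16a6 (2 peaks) and LOC100503496. DNA missing from αTC1 and closed DNA cannot be told apart in these data. Without this stretch 520 promoter peaks were called in βTC6. A further 48 promoter peaks stood at 1 read in all 19 libraries, 21 of them between positions 175031500 and 176493606 of chromosome 2, and they give no comparison.

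In αTC1 the 8 peaks with the largest statistics were those of 3930402G23Rik, Gcg, Bdnf, Sfi1, Plpp7, Mir344d-1, Psg16 and Gm2381. The promoter of 3930402G23Rik (chr8:10928260-10928948) had 66.5, 60.5, 66.0, 63.7 and 58.6 normalized reads in αTC1 and 1.14, 2.26, 2.30, 2.14 and 1.22 in βTC6, a log2 change of -4.54 ± 0.15 (SE; limma adjusted p = 6.53e-15). Its RNA stood at 108 ± 8.31 FPKM in αTC1 and 0.220 ± 0.0346 in βTC6 (SD, n = 3). Gcg, which encodes glucagon, had 158, 155, 151, 155 and 148 in αTC1 and 26.4, 31.2, 25.7, 32.2 and 23.3 in βTC6 (chr2:62321417-62322494, log2 change -2.44 ± 0.09, SE; limma adjusted p = 3.01e-14). No library of one line reached the other. The glucagon promoter was thus still at 27.8 ± 3.81 normalized reads in the insulin line, above the median promoter peak, and its RNA was at 229 ± 50.4 FPKM there against 12929 ± 1282 in αTC1.

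Plpp7, a member of the phospholipid phosphatase family, had 28.7, 30.8, 29.2, 31.0 and 42.3 normalized reads in αTC1 and 3.55, 4.51, 2.97, 3.57 and 3.29 in βTC6, and Gm2381 23.9, 21.4, 21.5, 23.2 and 22 against 0.710, 1.64, 1.35, 0.999 and 0.657. Neither pair of groups overlaps. The peak in Bdnf, a neurotrophin gene with several alternative starts, lay 826 bp from the nearest start at chr2:109517215-109518814, and held 143 ± 7.32 normalized reads in αTC1 against 34.2 ± 3.49 in βTC6 (SD, n = 5). The gene's RNA was 0.453 ± 0.0603 and 0.637 ± 0.138 FPKM and below the filter. Sfi1 had 837 ± 19.5 against 187 ± 32.3, and with Pisd-ps1 and Pisd-ps2 it made the 3 promoter peaks with the highest signal. Whether reads of similar sequences elsewhere add to these peaks was not tested. After quantile normalization Bdnf and Sfi1 had log2 fold changes of -1.62 and -1.47 and no longer passed the fold threshold.

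The insulin promoters were open in βTC6. Ins1 had 48.7, 49.2, 45.7, 41.7 and 70.9 normalized reads in βTC6 and 2.52, 2.25, 1.35, 1.64 and 1.16 in αTC1 (log2 change 4.23 ± 0.17, SE; limma adjusted p = 8.61e-14). Ins2 had 26.2 ± 6.28 against 1.41 ± 0.672 (SD, n = 5). A list of hormone, secretion and line-enriched genes had 18 promoter peaks, of which 9 were called in βTC6, where 5.00% of all promoter peaks were, and 1, Gcg, in αTC1, where 0.955% were. Several of its genes, among them Egfr, Tmem215, Abca5, Adcy1, Adcy3 and Prkar1a, were taken from the study's RNA results on these same lines, so the count is not independent evidence of a direction. Those of Ins1, Ins2, Egfr, Tmem215, Adcy1 and Adcy3 (adenylyl cyclases) were among the 9, and those of Prkar1a and Abca5 lie in the chromosome 11 stretch. After quantile normalization some of these calls were lost, with Adcy3 at 1.80. Of the markers of other cell types, the acinar and immune lists had no promoter peak. The RNA of the acinar list summed to 50.5 to 84.2 FPKM in αTC1 and 1.77 to 4.32 in βTC6, with 2 genes listed at 0 in every library. A single gene with a mean of 58.9 FPKM carried most of the αTC1 sum, and 2 of the 12 genes found passed the filter. The RNA of the immune list summed to 1.58 to 2 and 2.24 to 2.40. The part of these cells' markers in the promoter differences was not tested.

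Among 12 promoter peaks of beta-cell transcription factors, Pdx1 and Glis3 were called in βTC6 (16.7%, against 5.00% of all promoter peaks) and none in αTC1. At the FDR alone 7 of the 12 were higher in βTC6 and 3 in αTC1, where 2115 and 5778 of all 10684 promoter peaks were. Pdx1, the homeodomain factor of beta-cell identity, had 27.7, 24.8, 25.5, 32.0 and 25.3 normalized reads in βTC6 and 0.280, 0.702, 0.601, 0.409 and 0.144 in αTC1. Mafa, an activator of the insulin gene, had 52.7 ± 5.68 normalized reads in αTC1 and 38.0 ± 5.74 in βTC6 (a log2 change of -0.46, limma adjusted p = 0.000559, and -0.08 after quantile normalization). Its RNA was 0.260 ± 0.269 and 47.6 ± 7.42 FPKM (SD, n = 3). Nkx6-1 had 51.4 ± 3.46 and 64.4 ± 7.07 normalized reads. None of the 8 promoter peaks of alpha-cell factors was called, where 5.95% of all promoter peaks were called in either direction, and at the FDR alone 4 were higher in αTC1 and 0 in βTC6. The pan-endocrine list had 4 of 19 called in βTC6 (21.1%), Pcsk1 (a prohormone convertase), Rfx6 and Insm1 with 2, and 0 in αTC1. Over all 19 the median log2 fold change was -0.25, beside -0.32 over all promoter peaks, and at the FDR alone 9 were higher in αTC1 and 4, those called, in βTC6. Pax6, Pcsk2 and Neurod1 were at -0.88, -0.43 and -0.42, and at -0.40, 0.0017 and -0.03 after quantile normalization. After quantile normalization both Insm1 peaks, at 1.69 and 1.90, fell short of the fold threshold. Rfx6 had a peak with 41.0 ± 2.33 and 36.4 ± 3.31 normalized reads that was not called, and another, at chr10:51405011-51405642, with 1.68 ± 1.30 and 16.5 ± 2.09 that was, while its RNA did not pass the test. G6pc2, a glucose-6-phosphatase of islets, had 42.8 ± 7.87 and 41.8 ± 7.96 normalized reads beside 33.7 ± 1.41 and 791 ± 64.3 FPKM.

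Genes that beta cells normally keep silent had 9 promoter peaks, of which 4 (44.4%) were called in βTC6 and 1 (11.1%) in αTC1, beside 5.00% and 0.955% of all promoter peaks. Hk1 (hexokinase) was called in αTC1, with 74.6 ± 7.56 against 18.1 ± 4.72 normalized reads (log2 fold change -2.02, and -1.78 after quantile normalization, short of the threshold), and Slc16a1 (a lactate transporter) and Ldha (lactate dehydrogenase) had log2 fold changes of -1.61 and -1.07 and were not called. Acot7, Oat (2 peaks) and Cd44 were called in βTC6, and Cd44, at 1.74 after quantile normalization, then fell short of the threshold. Of the potassium channel genes, those with names beginning Kcn, 13 of 36 promoter peaks (36.1%) were called in βTC6, against 5.00% of all promoter peaks, and 0 in αTC1, with a median log2 fold change of 1.45 over all 36. The called peak of Kcnj2 lies in the chromosome 11 stretch, at 1 read in every αTC1 library. Among them were Kcna2, Kcna3, Kcnc2, Kcnf1, Kcnh5, Kcnh7, Kcnj2, Kcnk12, Kcnn2, Kcnq3, Kcns3 and Kcnv1. The RNA of 7 of the 13 was below the filter and that of 5 was called higher in βTC6. Of 167 solute carrier peaks 10 (5.99%) were called in βTC6 and 2 (1.2%) in αTC1, near the shares of all promoter peaks of 5.00% and 0.955%, and 2 of the 10, both of Slc16a6, lie in the chromosome 11 stretch. Of 34 protocadherin peaks 4 (11.8%) were called in βTC6 and 1 (2.94%) in αTC1. At the FDR alone the direction was the other way, with 21 of the 34 higher in αTC1 and 7 in βTC6, where 5778 and 2115 of all 10684 promoter peaks were. The median log2 fold change over the 34 was -0.60, and -0.85 after quantile normalization. Sox9, 1 of 5 peaks of the duct list, and Hoxb13, 1 of 4 of the Hox list, were called in αTC1, with 9.40 ± 1.21 and 13.4 ± 2.65 normalized reads against 1.69 ± 1.01 and 2.2 ± 0.686.

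Of promoters of widely used genes, none was called among 64 ribosomal protein peaks, 28 of proteasome subunits, 55 of the respiratory chain, 12 of housekeeping and 12 of circadian genes, where 5.95% of all promoter peaks were, a share that gives few calls among 12. Their median log2 fold changes were -0.55, -0.61, -0.52, -0.37 and -0.64, beside -0.32 over all promoter peaks. After quantile normalization these medians were -0.36, -0.41, -0.35, -0.17 and -0.26, beside -0.11. Of 269 peaks of zinc finger genes named Zfp, 3 (1.12%) were called in βTC6 and 2 (0.743%) in αTC1. Zfp597 was one of them, at 27.4 ± 3.59 normalized reads in βTC6 and 1.59 ± 0.218 in αTC1 (SD, n = 5), while its RNA, at 5.07 ± 1.07 and 7.54 ± 0.996 FPKM (SD, n = 3), was not called.

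The promoters open in αTC1 and in βTC6 differed in base composition, which the rule did not use. The CpG ratio had a median of 0.324 over the 102 peaks open in αTC1, 0.760 over the 534 open in βTC6 and 0.832 over the 10048 not called, and the median GC content was 54%, 67% and 66%. Of the 320 promoter peaks with a ratio up to 0.2, 9.38% were called in αTC1, of the 667 at 0.2 to 0.4 4.95%, and of the 2056 above 1 0.0973%. The share called in βTC6 ran from 7.61% at 0.4 to 0.6 to 3.70% above 1. CpG-poor promoter peaks also had fewer reads, with a median of 6.95 normalized reads up to 0.2 and 30.8 above 1. Among the other peaks, the αTC1 share likewise fell, from 6.37% to 1.83%, with 6.89% at 0.2 to 0.4, and the βTC6 share stayed between 13.5% and 16.3%.

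**Figure D3:**
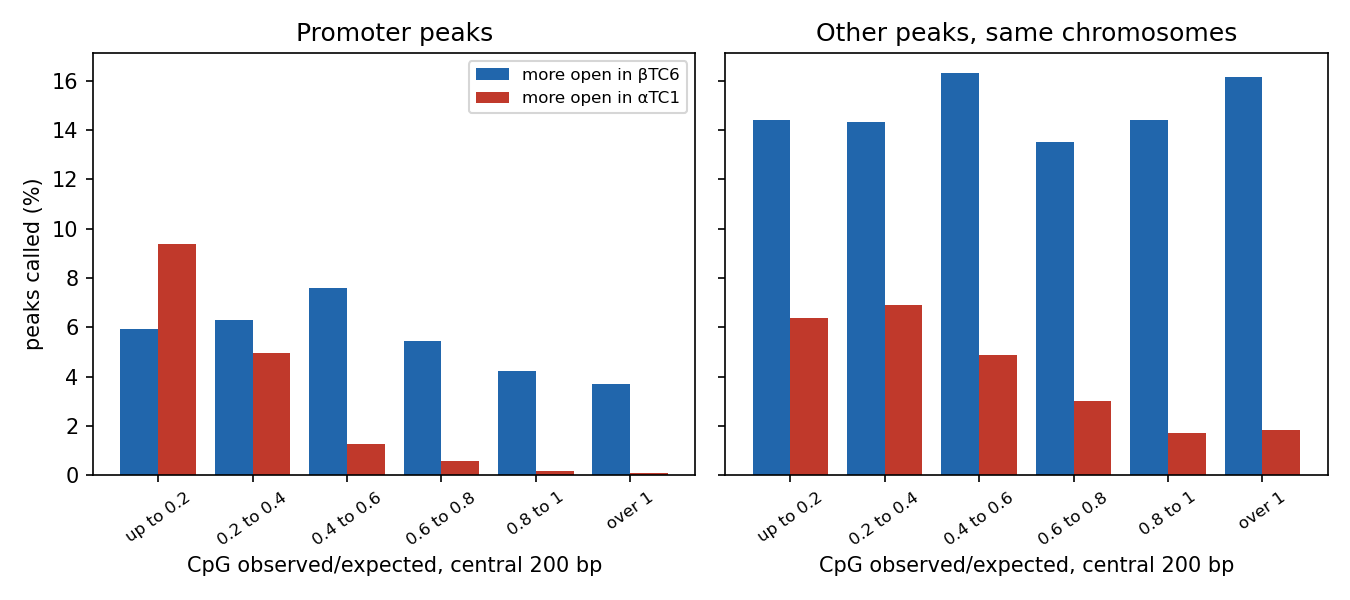
Bars give the share of peaks (%) called in βTC6 (blue) and αTC1 (red) by the CpG observed/expected ratio of the central 200 bp, for promoter peaks (left) and other peaks of the same chromosomes (right). At promoter peaks the αTC1 bars fall from 9.38% to 0.0973%, and the βTC6 bars lie between 3.70% and 7.61%.

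Short motifs were counted in the central 200 bp on both strands, without mismatches, as a description. None of the motifs searched contains another. GGGCGG, the GC box, was in 52.5% of all promoter peaks and 6.62% of the other peaks, in 47.2% of those open in βTC6 and 13.7% of those open in αTC1. CCGGAAGT, the core bound by ETS-family factors, was in 4.46% of promoter peaks, 0.375% of those open in βTC6 and 0 of 102 open in αTC1. CAGCTG, an E-box, was in 28.4% of those open in αTC1, 12.9% of those open in βTC6 and 11.9% of all promoter peaks. Since αTC1-open promoters were CpG-poor, the shares were also taken below a CpG ratio of 0.4, where CAGCTG was in 39.7% of the 63 peaks open in αTC1, 14.8% of the 61 open in βTC6 and 19.7% of the 863 not called. Above that ratio it was in 10.3% of the 39 peaks open in αTC1, 12.7% of the 473 open in βTC6 and 10.9% of the 9185 not called. GGGCGG was in 9.52%, 8.2% and 13.1% of those open in αTC1, open in βTC6 and not called up to a ratio of 0.4, and in 20.5%, 52.2% and 57% above it. TAATTA, a homeodomain core, was in 11.5%, 0 and 3.94% of those open in βTC6, open in αTC1 and not called up to a ratio of 0.4, and in 1.27%, 2.56% and 0.653% above it. TGTTTAC, a forkhead core, was in 5.88% of those open in αTC1, 1.12% of those open in βTC6 and 1.35% of all promoter peaks, and up to a ratio of 0.4 in 6.35% (4 of 63), 3.28% and, of those not called, 3.36%. TGCTGAC, a core bound by MAF factors, was in 6.86%, 2.06% and 2.57%, and up to that ratio in 7.94%, 3.28% and, of those not called, 4.87%. These differences up to a ratio of 0.4 rest on 2 to 5 called peaks each. AAGATGGCG, bound by YY1, was in 0, 0 and 1.98%. CCAATC, bound by NF-Y, was in 11% of all promoter peaks, and GCATGCGC, bound by NRF1, in 2.27%. GTTGCC, a core bound by RFX factors, was in 8.44%, and TGACGTCA, the cAMP response element, in 1.72%. TATAAA, which the TATA-binding protein contacts, was in 2.36% of all promoter peaks, 3.56% of those open in βTC6 and 4.9% of those open in αTC1.

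For most called promoter peaks whose gene was tested, the gene was called the same way in RNA. Of the 534 peaks open in βTC6, 327 had a gene tested by RNA-seq (edgeR quasi-likelihood test, with the same thresholds), and for 280 of these peaks (85.6%), of 265 genes, the gene was called higher in βTC6, where 10.2% of all tested genes were. For the 102 peaks open in αTC1, 60 had a tested gene, and for 37 of these peaks (61.7%) it was called higher in αTC1, where 4.08% of all were. Of the 8432 peaks that were not called and had a tested gene, 6.36% had one called higher in βTC6 and 2.70% one called higher in αTC1. For 177 of the βTC6-open and 28 of the αTC1-open peaks the gene was below the FPKM filter, with median levels of 0.293 and 0.0983 FPKM in the line with the open promoter. Over all called peaks the same direction was thus found for 280 of 534 and 37 of 102. The filter admits a gene by its level in either line, so a gene silent in the other line was tested only through the line where it is high. The shares among tested genes may be raised by this. Read from the genes, 265 of 723 genes called higher in βTC6 (36.7%) had a promoter peak called in βTC6, and 37 of 240 called higher in αTC1 (15.4%) one called in αTC1.

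Across 8138 genes with a promoter peak and a test, the log2 fold change of the strongest promoter peak and that of RNA had a Pearson r of 0.751 and a Spearman rho of 0.512. Genes are not independent replicates, and the 2 axes share the cell lines but no library. For the levels, Pearson's r between promoter signal and FPKM, both as log2(value + 1), was 0.556 in αTC1 and 0.319 in βTC6 over 9399 genes. Spearman's rho was 0.487 and 0.270. In αTC1 the median promoter signal was 3.74 normalized reads for genes up to 0.1 FPKM, 29.6 at 1 to 10 FPKM and 40.2 above 100, and in βTC6 7.35, 24.4 and 27.8.

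**Figure D4:**
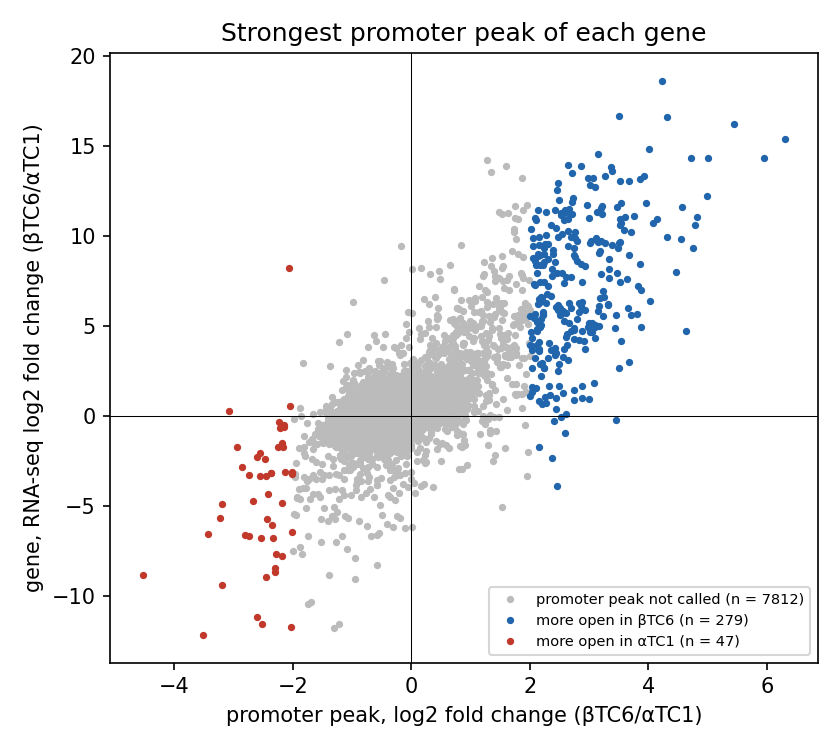
Each point is a gene, with the log2 fold change (βTC6/αTC1) of its strongest promoter peak on the x axis and of its RNA on the y axis, for 8138 genes. Blue points (279) had a strongest promoter peak called in βTC6 and red points (47) one called in αTC1, and most lie in the matching quadrants.

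A few promoters went against their RNA. Fat4, an atypical cadherin, had 32.9, 40.8, 31.4, 35.1 and 42.6 normalized reads in βTC6 and 7.14, 6.74, 6.61, 6.01 and 4.77 in αTC1 at a peak 984 bp into the gene, whereas its RNA was 0.573 ± 0.0231 FPKM in βTC6 and 3.09 ± 0.295 in αTC1 (SD, n = 3). Pter, a phosphotriesterase-related gene, had 26.4 ± 1.67 normalized reads in βTC6 and 4.11 ± 1.15 in αTC1 (SD, n = 5) at its TSS beside 1.40 ± 0.576 and 13.7 ± 3.41 FPKM (SD, n = 3). Both genes were called higher in αTC1 by RNA-seq. Ralyl, an RNA-binding protein, was the 1 gene with a promoter peak called each way. The peak at chr3:13471297-13472090 had 14.7 ± 4.09 normalized reads in βTC6 and 1.23 ± 1.19 in αTC1, that at chr3:13945910-13947086 had 2.69 ± 0.949 and 14.1 ± 2.08 (SD, n = 5), and the RNA was called higher in βTC6.

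In the mixtures, promoter signal followed the share of cells. Over the 534 βTC6-open peaks the mean was 27.9 ± 1.71 normalized reads in pure βTC6 and 3.13 ± 0.239 in pure αTC1 (SD, n = 5). In the mixtures with 10% to 90% βTC6 it was 4.4, 6.57, 8.73, 10.8, 14.7, 17.0, 18.4, 23.4 and 26.3. Over the 102 αTC1-open peaks it was 8.06, 11.2, 15.9, 16.4, 18.1, 23.0, 24.1, 26.3 and 29.3 from 10% to 90% αTC1, between 5.24 ± 0.614 in pure βTC6 and 30.9 ± 0.802 in pure αTC1. Each step up in the share raised the mean in both sets. Pearson's r with the share was 0.994 and 0.991 and Spearman's rho 1 in both over 9 mixtures (exact permutation test, 2-sided, p = 5.51e-06, the smallest it can give, and the same after Benjamini-Hochberg adjustment over 4 relations). Without the outermost mixtures r was 0.991 and 0.983. The mixtures did not enter the calls, but the consensus peaks were merged from all samples. The peaks were chosen to differ between the same lines that were mixed, so a rise with the share follows from that choice. The p-value is thus no evidence about promoters as such. In bulk samples, fewer cells of a line and less accessible DNA per cell cannot be told apart.

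The 14 promoter peaks of the chromosome 11 stretch had no αTC1 signal to add. Their mean, 35.7 ± 3.18 normalized reads in pure βTC6 (SD, n = 5), stood at 5.17%, 14.5%, 20.7%, 27.6%, 40.9%, 49.5%, 53.3%, 71.0% and 82.6% of that value in the mixtures with 10% to 90% βTC6. Each of these percentages lay below the share of βTC6 cells mixed in. Single promoters followed with more scatter. Galnt13 had 6.91, 15.8, 22.6, 38.0, 54.5, 57.7, 79.0, 90.0 and 104 normalized reads from 10% to 90% βTC6, in the order of the shares, while Gcg had 39.0, 49.7, 63.0, 73.5, 85.5, 106, 96.8, 108 and 139 from 10% to 90% αTC1, with 1 step down between 60% and 70%.

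**Figure D5:**
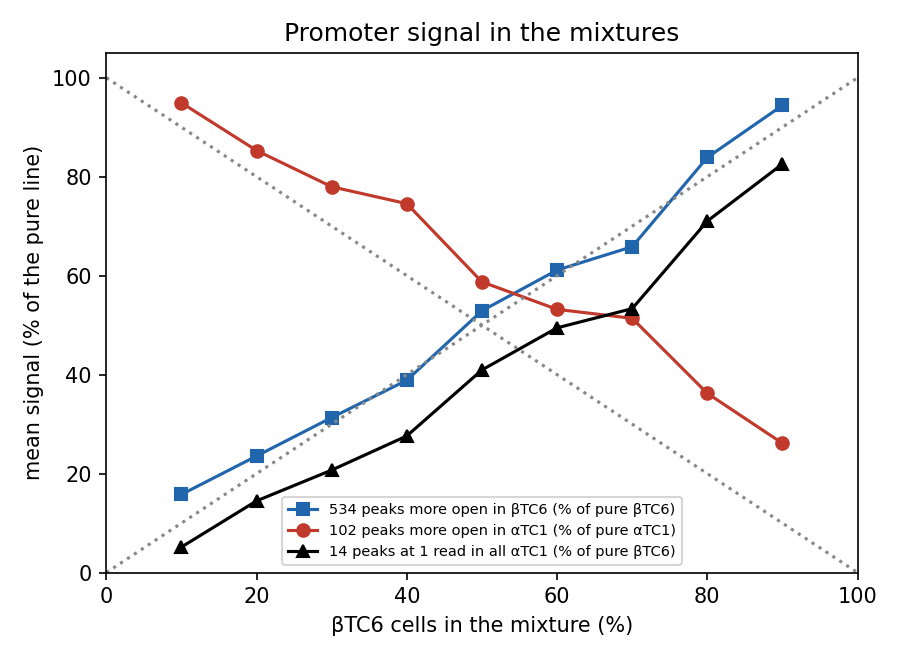
The x axis is the share of βTC6 cells (%) and the y axis the mean promoter signal as a percentage of the pure line in which the peaks are open. Blue squares (534 βTC6-open peaks) and black triangles (14 peaks of the chromosome 11 stretch) climb with the share, red circles (102 αTC1-open peaks) decline, and dotted lines mark equal percentages.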

How the data were processed

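ATAC-seq and RNA-seq of the αTC1 and βTC6 lines were analysed from the deposited tables. ATAC-seq reads went through Trimmomatic 0.32, BWA 0.7.9a on mm9 and duplicate removal by Picard 1.95. The authors called peaks in each library with MACS2 2.1.0 and counted reads with DiffBind 2.2.5 in consensus peaks found in at least 2 libraries, per the submitters' processing notes and the study's methods. The deposited signal is a read count per peak normalized by TMM, and HOMER 4.6 gave the distance to the nearest TSS. All values were whole reads, within 0.01, once divided by the value of 1 read. For RNA-seq the authors deposited expected counts and FPKM from RSEM 1.2.12. Columns of the authors' own comparisons were not used.

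Promoter peaks and gene lists were chosen with earlier results of these data known. Peaks were compared by limma 3.58.1 (R 4.3.3) on log2(value + 1) with a trend, over all 65053 peaks, without a filter, so fold changes of low peaks are understated. Expected counts were rounded to whole numbers and tested by edgeR 4.0.16 (quasi-likelihood, TMM) over 12195 genes with at least 1 FPKM in all replicates of either line. Calls needed an adjusted p under 0.05 (Benjamini-Hochberg) and an absolute log2 fold change over 2. In tests on simulated data with a fixed dispersion, limma called 200 of 200 peaks changed by 3 on the log2 scale over 65053 peaks. The changed peaks were drawn from those with over 20 expected reads, so changes at lower peaks were not covered. Single values were compared by exact permutation or sign-flip tests (scipy 1.17.1). Alternatives included other pseudocounts, quantile normalization, edgeR and DESeq2 1.42.0 on recovered reads, other windows and left-out libraries. Genes named were, in each direction, the 8 called peaks with the largest moderated t and a mean of at least 20 normalized reads, up to 4 called peaks of each list and its strongest uncalled peak, called peaks with the opposite RNA call, genes with a peak called each way, and the 3 highest peaks. The other list members and the genes of the chromosome 11 stretch were named after their values were seen. Of 9879 gene symbols, 9402 matched the RNA-seq table. Sequences and exons were read from the mm9 genome and GENCODE vM1. Counts of reads limit precision by counting error only, and no interval covers library preparation. Some list members are not reported here.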

Additional observations from a re-analysis of the deposited data

Results flagged for a closer look

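A sample far from the 4 others of its line was sought in 45 groups of 5 libraries, where chance gives about 1 in 20, and 3 were found. The distance of αTC1 replicate 5 from the βTC6 mean over promoter peaks was 0.483, with a gap to the nearest αTC1 library of 0.779 of the range. At the promoter of Plpp7 the same library had 42.3 normalized reads, with a gap of 0.833 of the range. At the Ralyl peak that was more open in βTC6, αTC1 replicate 4 had 3.28 normalized reads, with a gap of 0.710 of the range.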

How the results depend on the processing

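Of the results recomputed under the alternatives, 92 values kept their direction and their side of the threshold or stayed within 1.5 times the reported count, 3 counts moved further and 9 values lost the threshold. None turned direction. With a pseudocount of 5, 175 promoter peaks were called in βTC6 and 15 in αTC1, all among those reported, as the larger pseudocount shrinks the fold change of low peaks. DESeq2 on recovered reads called 157 in αTC1, including all 102. Other alternatives gave 399 to 751 in βTC6 and 79 to 151 in αTC1.

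Subtracting the distance within the own line, added after seeing the data, left a distance between lines of -0.470 at promoter against other peaks. Leaving out each library in turn gave 513 to 549 and 100 to 113 called peaks, a difference in the share of reads of -5.40 to -3.77 points, a distance between lines of -0.561 to -0.524, and, in RNA-seq, 278 to 280 and 36 to 37 peaks whose gene was called the same way. The share of reads was the result that lost its threshold under alternatives, at -5.84 points in replicates 1 to 3 and -2.26 in replicates 4 and 5, where the exact tests cannot reach the threshold. Replicate numbers did not pair the samples, since deviations of same-numbered libraries correlated by at most 0.069. With a replicate block the difference in shares was -4.41 points (exact sign-flip test, p = 0.0625, the smallest it can give), and 534, 102, 280 and 37 calls were made. A covariate for the processing group, chosen after seeing the data, left 534 and 102. Depth limits peaks with few reads, since values stop at 1 read.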
